A study of Homo sapiens with 6 samples.

Results

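Kinesins are motor proteins that walk along or take apart microtubules, and their transcripts were followed here in a human liver cancer cell line. The genes were those whose symbol is KIF or KIFC followed by a number, each read from probe sets naming that symbol alone and represented by its brightest probe set. They came to 41 genes with 85 probe sets, of 19775 genes measured. By known role 13 were placed with the mitotic kinesins, 17 with the transport kinesins and 11 with the other kinesins, whose members act at microtubule ends and in cilia or have a less settled role. KIF4B, an intronless copy of KIF4A, had no probe set naming it alone, so it is not analysed here and a share of its signal in the KIF4A probe set cannot be told apart.

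The arrays labelled USP48 overexpression (n = 3) held RNA of SNU-449 cells, a human hepatocellular carcinoma line, infected with lentivirus bearing the gene of the deubiquitinating enzyme USP48 for 24 h at a multiplicity of at least 90, grown on for 4 to 6 days and then selected with puromycin. The arrays labelled empty vector (n = 3) held RNA of the same line labelled as carrying the vector, with the same protocol text. The titles call the cells transfected, the protocol describes transduction, and the labels do not say whether replicates were separate cultures or how many clones survived selection, so every p-value here rests on array-to-array spread that could be purely technical. The comparison asks how kinesin transcripts differ with the USP48 label.

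A kinesin couples ATP hydrolysis in its motor domain to steps along a microtubule, and most move toward the plus end. Mitotic kinesins build the spindle, move chromosomes and complete cell division, and their transcripts are known to accumulate in the G2 and M phases of the cell cycle. Transport kinesins carry vesicles, organelles and RNA in cells that divide and cells that do not.

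USP48 itself was not called higher. Its brightest probe set read 7.90, 7.85 and 8.03 on the log2 scale in the USP48-labelled arrays, against 8.11, 8.04 and 8.003 in the empty vector arrays. Of its 5 probe sets 2 were lower, with log2 differences of −0.82 and −0.63 (limma adjusted p = 0.00013 and 0.00085 over all probe sets), and the others did not pass. The groups are therefore called by their labels in every direction given here. The hybridization control probe sets, labelled RNAs added before hybridization, averaged 10.09 ± 0.10 in the USP48-labelled arrays and 9.79 ± 0.04 in the empty vector arrays (SD, n = 3 each; two-sided exact permutation p = 0.1, and no smaller p is possible with these group sizes). The 5′ minus 3′ difference of GAPDH, a measure of RNA integrity, ran from −1.31 to −0.45 in the USP48-labelled arrays and from −0.44 to −0.32 in the empty vector arrays, with USP48 overexpression replicate 3 at −1.31. The poly-A control probe sets, which also read added RNAs, averaged 5.10 ± 0.21 in the USP48-labelled arrays and 4.71 ± 0.12 in the empty vector arrays (SD, n = 3 each, two-sided exact permutation p = 0.1). The part of these control and integrity values in the results below was not tested. Of the liver markers, ALB, encoding albumin, had means of 2.14 in the USP48-labelled arrays and 2.07 in the empty vector arrays. Both lie under the lowest array median of 3.75, and 5 of 7 measured hepatocyte markers were under that level in each group. The epithelial keratins KRT8 and KRT18 were bright (10.57 and 11.80 in USP48-labelled arrays, 10.88 and 11.79 in empty vector arrays). The epithelial markers KRT19 (2.81 in each group) and CDH1 (2.57 in USP48-labelled and 2.95 in empty vector arrays) were under the lowest array median. PTPRC, which marks leukocytes, had means of 1.88 in USP48-labelled arrays and 1.96 in empty vector arrays. Of 5 measured leukocyte markers 3, PTPRC among them, were under the lowest array median in each group. The leukocyte markers CD3E and ITGAM lay above the median of every array in each group. Of 5 fibroblast markers 2 were under the lowest array median in each group. The fibroblast marker COL1A1 had means of 7.33 in USP48-labelled arrays and 7.62 in empty vector arrays. Of the markers of other cell types, EPCAM and CDH1 of epithelium and CDH5 of endothelium were lower, by log2 differences of −0.42, −0.38 and −0.42, and their part in the results was not tested.

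Between the groups the mitotic kinesins fell almost as a class, and the transport kinesins did not move together. Of all 41 kinesins, 20 passed a limma adjusted p under 0.05 over all genes, 17 lower and 3 higher, where 29.8% of all genes passed, 14.1% lower and 15.7% higher. Of 13 mitotic kinesins, 12 fell and 0 rose. KIF2A, which acts at spindle poles and in interphase cells, was counted with the other kinesins, and the mitotic count depends on that choice. Its means were 7.70 in USP48-labelled and 7.56 in empty vector arrays, and it did not pass (log2 difference 0.15, limma adjusted p = 0.212). Of 17 transport kinesins 5 fell and 2 rose, and of 11 other kinesins 0 fell and 1 rose. The median log2 difference (USP48-labelled minus empty vector) was −1.001 in the mitotic class, 0.02 in the transport class and 0.10 in the other class, beside 0.05 over all genes. Reductions of at least 2-fold were found for 7 mitotic and 2 transport kinesins, against 1.91% of all genes, and a rise of at least 2-fold for 1 transport kinesin, against 1.83%. The 7 include KIF20B, whose USP48-labelled values lie below the median of every array, so the size of its fall is uncertain. The difference between the classes was not tested, since the classes were chosen with results of these data known.

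The separation held in every array. Relative to the empty vector mean of each gene, the median mitotic kinesin stood at −1.02, −0.88 and −1.05 in the USP48-labelled arrays, and at 0.08, 0.05 and −0.10 in the empty vector arrays. The same medians for the transport kinesins were 0.02, −0.01 and 0.08 in the USP48-labelled arrays, against 0.03, −0.06 and 0.03 in the empty vector arrays. Over all 41 kinesins the groups did not overlap for 18 with the USP48-labelled arrays below and 8 with them above, against 42.9% of all genes in either direction, 19.1% below and 23.8% above. For 12 of 13 mitotic kinesins every USP48-labelled array lay below every empty vector array, with gaps between the groups of 0.28 to 1.10 on the log2 scale. In bulk RNA, fewer cells in G2 and M phase and less of these transcripts per cell cannot be told apart.

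**Figure D1:**
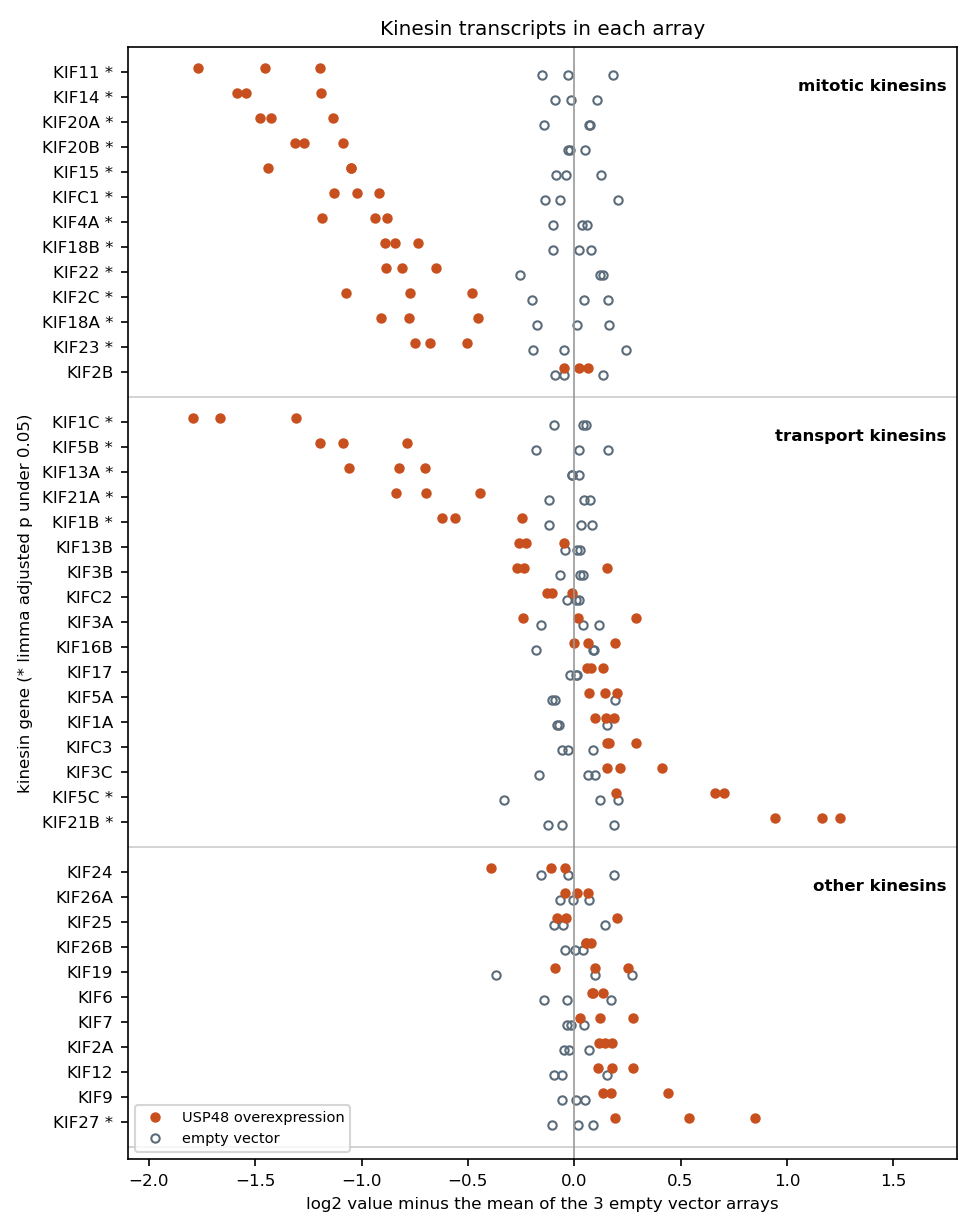
Each row is 1 kinesin gene and each point 1 array, plotted as its log2 value minus the mean of the 3 empty vector arrays (filled, USP48 overexpression; open, empty vector; stars, limma adjusted p under 0.05). The USP48-labelled points of 12 mitotic kinesins lie left of all empty vector points, while transport kinesins spread to either side, with KIF1C at −1.59 and KIF21B at 1.12 on average.

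Motors of the mitotic class that set up the bipolar spindle fell. KIF11, also called Eg5, is the plus-end motor that slides antiparallel microtubules apart and is the target of monastrol-type inhibitors. It read 4.72, 5.30 and 5.04 in the USP48-labelled arrays, against 6.67, 6.47 and 6.34 in the empty vector arrays. Its groups were 1.04 apart, and the log2 difference was −1.47 (SE 0.14, 2.78-fold lower, limma adjusted p = 2.9e-05). KIF15, which can keep spindles bipolar when KIF11 is blocked, fell alongside it. KIF15 read 4.46, 4.85 and 4.85 in the USP48-labelled arrays, against 6.03, 5.87 and 5.82 in the empty vector arrays (log2 difference −1.18, SE 0.12, limma adjusted p = 3.8e-05). KIFC1, a minus-end motor that focuses spindle poles and clusters extra centrosomes in cancer cells, read 6.89, 6.99 and 6.78 in USP48-labelled arrays, against 7.84, 8.12 and 7.78 in empty vector arrays. The motors of opposite polarity were thus both lower, KIFC1 by 2.03-fold (log2 difference −1.02, SE 0.11, limma adjusted p = 5.2e-05).

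Kinesins of the central spindle and of cytokinesis were also lower. KIF20A, which brings the chromosomal passenger complex with Aurora B to the central spindle, read 6.69, 6.74 and 7.04 in the USP48-labelled arrays, against 8.25, 8.24 and 8.03 in the empty vector arrays. Its groups did not overlap, and its log2 difference was −1.35 (SE 0.11, 2.55-fold lower, limma adjusted p = 1.1e-05). KIF14, which works with citron kinase in cytokinesis, read 4.96, 4.92 and 5.31 in USP48-labelled arrays, against 6.61, 6.49 and 6.41 in empty vector arrays. It was 2.71-fold lower with no overlap (log2 difference −1.44, SE 0.12, limma adjusted p = 8.7e-06), and its second probe set fell by 1.72. KIF20B, which acts late in cytokinesis, read 3.48, 3.66 and 3.43 in USP48-labelled arrays, against 4.72, 4.80 and 4.73 in empty vector arrays (log2 difference −1.22, SE 0.09, limma adjusted p = 5.3e-06). Its USP48-labelled values lie below the median of every array, so no fold is given. KIF4A, a chromosome-bound motor that with PRC1 sets the length of the spindle midzone, read 7.42, 7.73 and 7.67 in USP48-labelled arrays, against 8.64, 8.67 and 8.51 in empty vector arrays (log2 difference −1.001, SE 0.10, limma adjusted p = 4.2e-05). KIF23, the motor subunit of centralspindlin with RACGAP1, was lower by less in its brightest probe set than in its dimmer one, which fell by 1.16. The dimmer one had means of 2.43 in USP48-labelled and 3.59 in empty vector arrays. Both lie under the lowest array median of 3.75, so the size of that fall is uncertain. The brightest read 5.52, 5.27 and 5.35 in USP48-labelled arrays, against 6.27, 5.83 and 5.98 in empty vector arrays (log2 difference −0.64, SE 0.12, limma adjusted p = 0.0022).

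Within the mitotic class, motors that act at kinetochores, chromosome arms and microtubule ends fell too, except KIF2B. KIF2A, which also takes microtubules apart and was counted with the other kinesins, did not pass, at 0.15. KIF2C, or MCAK, takes microtubules apart at centromeres and has no walking motion. It read 8.26, 8.55 and 7.96 in USP48-labelled arrays, against 9.08, 9.19 and 8.83 in empty vector arrays (log2 difference −0.78, SE 0.15, limma adjusted p = 0.0024). Its groups were 0.28 apart, and its second probe set also fell, by 0.69. KIF18A, which dampens chromosome movements at the metaphase plate, read 3.62, 3.95 and 3.49 in USP48-labelled arrays, against 4.56, 4.41 and 4.22 in empty vector arrays (log2 difference −0.71, limma adjusted p = 0.0019). The mean of its USP48-labelled values, 3.68, lies below the median of every array. KIF18B, which shortens astral microtubules, read 7.84, 7.99 and 7.88 in USP48-labelled arrays, against 8.80, 8.75 and 8.63 in empty vector arrays (log2 difference −0.82, limma adjusted p = 6.0e-05). Neither relative had overlapping groups. KIF22, a chromosome-arm motor, read 6.62, 6.78 and 6.54 in USP48-labelled arrays, against 7.55, 7.56 and 7.17 in empty vector arrays (log2 difference −0.78, limma adjusted p = 0.00059), and its other probe set was at −0.13. The 1 mitotic kinesin that did not pass was KIF2B, a relative of KIF2C. KIF2B read 2.43, 2.47 and 2.36 in USP48-labelled arrays and 2.32, 2.55 and 2.36 in empty vector arrays, below the median of every array in each group, so its value says little about change.

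**Figure D2:**
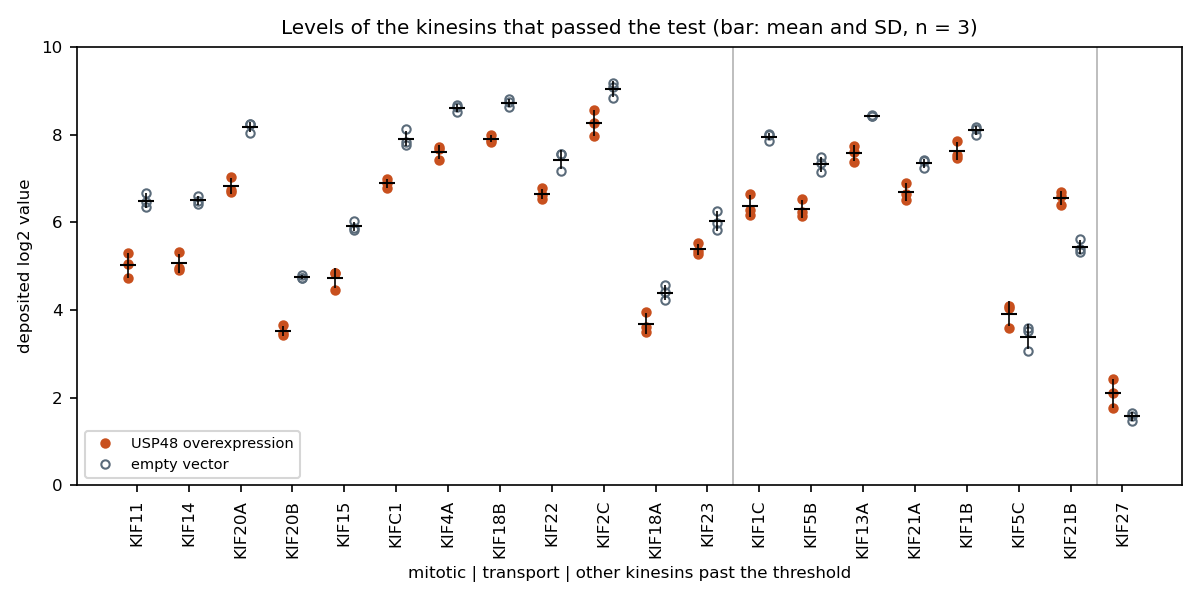
Deposited log2 values of the 20 kinesins past the threshold, with 1 point per array, USP48 overexpression (filled) to the left of empty vector (open) for each gene, and bars for the mean and SD of 3 arrays. The groups overlap for KIF5C alone, and the KIF27 points lie near the bottom of the scale.

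The promoters of the mitotic kinesins are shown because the genes moved together. Genes of G2 and M phase are known to carry a cell cycle homology region, with the letters TTTGAA, bound by the DREAM and MYB-containing complexes, and CCAAT boxes bound by NF-Y. The RefSeq table of GRCh38.p14 promoters, which runs from 250 bases before to 50 bases after each annotated start, held 33 of the 41 kinesins, 7 of them with several starts, and both motifs were searched on both strands. They do not overlap each other in the stretches printed. The 120 bases that end just before the start are given for 5 mitotic kinesins with different motif layouts. They are also given for KIF1C, the transport kinesin with the largest fall by brightest probe set. Each motif, or its reverse complement TTCAAA or ATTGG, is in capitals.
KIF11 (chr10:92593010-92593129, plus strand): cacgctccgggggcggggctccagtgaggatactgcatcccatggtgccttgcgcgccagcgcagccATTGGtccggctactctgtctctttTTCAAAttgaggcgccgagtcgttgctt
KIF15 (chr3:44761674-44761793, plus strand): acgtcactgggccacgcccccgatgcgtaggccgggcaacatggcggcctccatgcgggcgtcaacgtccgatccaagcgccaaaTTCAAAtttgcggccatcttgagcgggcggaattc
KIF4A (chrX:70289984-70290103, plus strand): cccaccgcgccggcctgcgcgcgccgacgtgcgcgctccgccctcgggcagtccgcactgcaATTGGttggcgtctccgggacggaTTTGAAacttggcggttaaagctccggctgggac
KIF18A (chr11:28108157-28108276, minus strand): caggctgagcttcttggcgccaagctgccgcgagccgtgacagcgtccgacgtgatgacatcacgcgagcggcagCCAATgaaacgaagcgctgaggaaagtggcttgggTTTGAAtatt
KIF20A (chr5:138178992-138179111, plus strand): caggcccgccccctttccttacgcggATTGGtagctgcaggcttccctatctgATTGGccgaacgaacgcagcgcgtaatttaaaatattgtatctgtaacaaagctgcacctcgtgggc
KIF1C (chr17:4997830-4997949, plus strand): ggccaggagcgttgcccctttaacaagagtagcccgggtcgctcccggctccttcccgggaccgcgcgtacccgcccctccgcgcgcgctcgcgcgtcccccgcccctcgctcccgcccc

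In KIF11 the CCAAT box begins 53 bases and TTTGAA 28 bases before the start, in KIF4A they begin 58 and 34 bases before it, and in KIF18A 45 and 10 bases before it. KIF15 has TTTGAA at 35 bases and no CCAAT in the window, and KIF20A has a pair of CCAAT boxes at 94 and 67 bases and no TTTGAA. KIF1C has neither. Over the whole window TTTGAA was present in 9 of 13 mitotic kinesins (69.2%), in 1 of 12 transport kinesins (8.33%) and in 0 of 8 other kinesins, against 15.2% of all promoters and 15.6% of the measured genes with an entry. CCAAT was present in 10 of 13, 4 of 12 and 3 of 8, against 34.6% of all promoters and 41.7% of the measured genes. Both together were present in 8, 1 and 0 genes, against 5.90% of all promoters and 6.39% of the measured genes. A gene was counted where any of its promoters held the motif, so the share of measured genes is the like comparison. The 1 transport gene with both was KIF5B, where TTTGAA lies 140 bases before the start. Without KIF2B, which did not pass the test, TTTGAA was present in 9 of 12 mitotic kinesins. These counts describe letters in a window, and binding was not measured.

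The mitotic kinesins KIF15, KIF20A, KIF4A and KIF18A share their promoter region with a measured gene on the other strand whose start lies within 500 bases. So do KIF9 and KIF24 of the other kinesins, beside KLHL18 (145 bases) and NUDT2 (301 bases). Neighbours not measured on the arrays were left out. The share of all promoters with such a neighbour was not computed, so this is not read as a trait of a class. Of all genes 15.7% were higher and 14.1% lower. KLHL18 and NUDT2 were higher, with log2 differences of 0.47 and 0.35 (limma adjusted p = 0.0017 and 0.032). KIAA1143, 175 bases from KIF15, was higher, at 9.32 ± 0.16 in USP48-labelled arrays and 8.90 ± 0.04 in empty vector arrays (SD, n = 3 each; log2 difference 0.43, limma adjusted p = 0.0073). BRD8, 482 bases from KIF20A, fell by 0.37 (adjusted p = 0.0071). PDZD11 beside KIF4A and METTL15 beside KIF18A did not pass, with log2 differences of −0.04 and 0.09. The mitotic kinesins of these pairs had log2 differences of −1.18 (KIF15), −1.35 (KIF20A), −1.001 (KIF4A) and −0.71 (KIF18A), and the difference between neighbours was not tested.

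Partners of the mitotic kinesins moved with them. Of 19 measured partners, 17 fell and 0 rose, where 14.1% of all genes fell and 15.7% rose, with a median log2 difference of −0.98 beside 0.05 over all genes. CENPE, a kinetochore kinesin outside the symbol rule, read 2.66, 2.99 and 3.35 in USP48-labelled arrays, against 4.39, 4.59 and 4.52 in empty vector arrays (log2 difference −1.50, SE 0.15, limma adjusted p = 3.9e-05). The USP48-labelled values of CENPE lie below the median of every array, so the size of its fall is uncertain. DLGAP5, a spindle assembly protein, was at −1.23, AURKA, the kinase that activates spindle assembly, at −1.07, and TPX2, its activator, at −1.05. INCENP and KNSTRN did not pass, at −0.41 and 0.02. Against the same background, of 20 G2 and M phase genes that encode no motor, 19 fell and 0 rose (median −0.99), with ASPM at −2.55, CENPF at −2.08, TOP2A at −1.89 and ANLN at −1.62. The summed log2 values of those 20 genes ran from 143.0 to 147.4 in the USP48-labelled arrays and from 164.6 to 168.6 in the empty vector arrays, and their part in the kinesin result was not tested. Of 20 S phase genes 13 fell and 0 rose with a smaller median of −0.44, and POLA1, MCM5, GINS1 and RFC3 were lowest at −0.78, −0.73, −0.73 and −0.66. TTTGAA was present in the promoters of 12 of 16 partners, 12 of 17 G2 and M phase genes and 1 of 18 S phase genes with an entry. CCAAT was present in 14 of 16, 15 of 17 and 13 of 18 of them, so its share in S phase genes (72.2%) was near that in mitotic kinesins (76.9%).

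**Figure D3:**
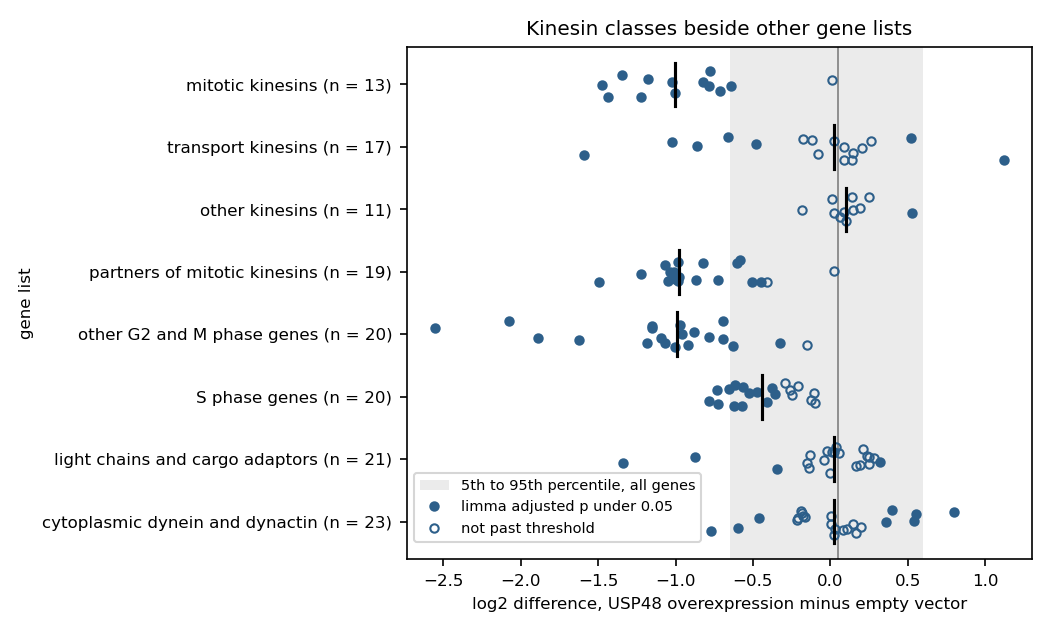
Each point is the log2 difference (USP48 overexpression minus empty vector) of 1 gene, filled where the limma adjusted p is under 0.05, with a black bar at the median of its list; the grey band spans the 5th to 95th percentile of all genes, −0.65 to 0.60. Mitotic kinesins, their partners and other G2 and M phase genes centre near −1, and transport kinesins, light chains and dynein near 0.

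The transport kinesins that fell were KIF1C, KIF5B, KIF13A, KIF21A and KIF1B. KIF1C, a carrier of integrins and of RNA to cell protrusions, had the lowest log2 difference of all 41 kinesins by brightest probe set. Its dimmer probe sets were at −0.48 and −0.13, so this rank rests on 1 of its 3 probe sets. The brightest read 6.29, 6.16 and 6.64 in the USP48-labelled arrays, against 8.01, 7.99 and 7.86 in the empty vector arrays. The gap between the groups was 1.22 and the log2 difference −1.59 (SE 0.12, 3.01-fold lower, limma adjusted p = 6.8e-06). KIF5B, the widely expressed heavy chain of conventional kinesin (kinesin family 1), read 6.24, 6.13 and 6.54 in USP48-labelled arrays, against 7.49, 7.15 and 7.35 in empty vector arrays (log2 difference −1.02, SE 0.12, limma adjusted p = 0.00014). Its groups did not overlap either. KIF13A, which moves recycling endosomes, read 7.37, 7.61 and 7.73 in USP48-labelled arrays, against 8.42, 8.42 and 8.45 in empty vector arrays (log2 difference −0.86, SE 0.10, limma adjusted p = 0.00011). Of its 6 probe sets 3 were called lower, and with the median of its probe sets the call was lost (−0.12, adjusted p = 0.317). KIF21A, a family 4 motor that restrains microtubule growth at the cell cortex, and KIF1B, a carrier of mitochondria and synaptic vesicle precursors, had log2 differences of −0.66 and −0.48 (limma adjusted p = 0.0012 and 0.0083).

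KIF21B, the close relative of KIF21A that is best known from neurons and lymphocytes, went the other way. It read 6.39, 6.61 and 6.69 in the USP48-labelled arrays, against 5.32, 5.63 and 5.38 in the empty vector arrays. All USP48-labelled arrays were above all empty vector arrays, by 0.76, and the log2 difference was 1.12 (SE 0.11, 2.17-fold higher, limma adjusted p = 3.8e-05), with 1 probe set to rest on. KIF5C, the neuron-enriched member of family 1, passed the test with overlapping groups. It read 4.05, 4.10 and 3.59 in USP48-labelled arrays, against 3.06, 3.52 and 3.60 in empty vector arrays (log2 difference 0.52, SE 0.16, limma adjusted p = 0.034). The empty vector values lie below the median of every array, so no fold is given. The call was lost without USP48 overexpression replicate 1 or 2 (0.45 and 0.43, adjusted p = 0.114 and 0.118), without empty vector replicate 1 or 2 (0.36 and 0.58, adjusted p = 0.132 and 0.055), and the median of its probe sets was at −0.12. The remaining 10 transport kinesins had log2 differences from −0.18 to 0.26. They include KIF3A and KIF3B, the family 2 motors of intraflagellar transport, at 0.02 and −0.12. Their family relatives KIF3C and KIF17 were at 0.26 and 0.09, and the minus-end motors KIFC2 and KIFC3 at −0.08 and 0.20. The early endosome motor KIF16B was at 0.09, and its dimmer probe set was lower at −0.46 (limma adjusted p = 0.020 over all probe sets). KIF3B read 8.72, 8.69 and 9.11 in USP48-labelled arrays and 8.98, 8.89 and 8.997 in empty vector arrays, and its groups overlapped.

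Because close relatives are measured on the same arrays, the gap between a pair was also compared between the groups. Each pair was written with the higher log2 difference first, so every shift is positive by construction. Of 17 pairs of kinesins that share a symbol number, 9 had a gap that separated the groups completely. Among single genes 42.9% separated, and the share among pairs of other genes was not computed, so this count is not read as a result. KIF1C, KIF2C and KIF5B each enter several pairs. Those 9 pairs had a two-sided exact permutation p = 0.1, the smallest possible. After adjustment over the 17 pairs it was 0.189, so no pair can pass in this design. KIF21B minus KIF21A was −0.26, 0.10 and −0.22 in the USP48-labelled arrays, against −2.08, −1.60 and −2.04 in the empty vector arrays, a shift of 1.78. KIF1A minus KIF1C shifted by 1.74 and KIF5C minus KIF5B by 1.54 (exact permutation p = 0.1 each), the second resting on KIF5C values that lie below the array medians in the empty vector arrays. KIF13B, a relative of KIF13A that binds the scaffold DLG1, had a log2 difference of −0.18 (adjusted p = 0.161), and KIF13B minus KIF13A shifted by 0.68. Of the pairs with both members in the mitotic class, KIF18A minus KIF18B shifted by 0.11 and KIF20B minus KIF20A by 0.12 (exact permutation p = 0.4 and 0.5). KIF2B minus KIF2C shifted by 0.79 (exact permutation p = 0.1), with KIF2B below the array medians in both groups. KIF2A minus KIF2C shifted by 0.92 (exact permutation p = 0.1), with KIF2A, which takes microtubules apart at spindle poles and in interphase cells, at 0.15.

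Of the 11 other kinesins only KIF27, a relative of the Hedgehog regulator KIF7, passed. KIF27 read 1.76, 2.11 and 2.42 in USP48-labelled arrays, against 1.65, 1.47 and 1.59 in empty vector arrays (log2 difference 0.53, SE 0.14, limma adjusted p = 0.019). All 6 values lie below the median of every array, so no fold is given. The call was lost without USP48 overexpression replicate 2, empty vector replicate 2 or empty vector replicate 3 (0.52, 0.48 and 0.53, with adjusted p = 0.053, 0.076 and 0.053). The other 10 ran from −0.18 for KIF24, a centriole protein, to 0.25 for KIF9, a motor of motile cilia. KIF7 itself was at 0.14 and KIF26A and KIF26B, which have lost motor activity, were at 0.01 and 0.06. A second probe set of KIF26A rose by 0.34 (limma adjusted p = 0.039 over all probe sets).

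Cargo adaptors and the opposing motor held calls in both directions, at shares near those of all genes (14.1% lower and 15.7% higher) except for few higher adaptors. Of 21 measured light chains and cargo adaptors of kinesin, 3 fell (14.3%) and 1 rose (4.76%), with a median log2 difference of 0.03. The scaffold DLG1 fell by 1.34, the kinesin anchor KTN1 by 0.87 and the mitochondrial adaptor TRAK2 by 0.35, and FEZ2 rose by 0.32, while the light chains KLC1, KLC2, KLC3 and KLC4 had differences of 0.06, 0.25, 0.25 and 0.04. Without empty vector replicate 2 the count of calls was 2, both lower. Of 23 measured genes of cytoplasmic dynein and dynactin, which move cargo toward the minus end, 3 fell (13.04%) and 5 rose (21.7%), with a median of 0.02. The dynactin subunit DCTN5 was at 0.80, the light chains DYNLRB2 and DYNLT3 at −0.77 and −0.60 and the light intermediate chain DYNC1LI1 at 0.56, and the heavy chain DYNC1H1 did not pass, at −0.22.

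Probe sets of the same gene often gave differences of unequal size. Of 26 kinesins with several probe sets, 12 were called lower by at least 1 of them and 4 by every one (KIF14, KIF21A, KIF23 and KIF2C), and 0 were called in both directions. The dimmer KIF23 probe set had means under the lowest array median in each group. The same shares over all 10523 genes with several probe sets were not computed, so these counts only describe the kinesins. A count by at least 1 probe set also grows with the number of probe sets. Over the 85 kinesin probe sets, 29 fell and 4 rose after adjustment over all probe sets, where 13.8% of all probe sets fell and 10.6% rose. The 3 probe sets of KIF5B were at −1.77, −1.02 and −0.15, and those of KIF1C at −1.59, −0.48 and −0.13. The KIF5B probe set with the largest fall, not the brightest, read 5.21, 5.27 and 5.57 in USP48-labelled arrays, against 7.20, 7.01 and 7.15 in empty vector arrays (limma adjusted p = 3.4e-06 over all probe sets). KIF3A, not called by its brightest probe set, had a dimmer one at 3.97, 3.84 and 4.56 in USP48-labelled arrays and 5.17, 5.14 and 5.17 in empty vector arrays (log2 difference −1.04, adjusted p = 0.00075), and its mean over probe sets was −0.51 (adjusted p = 0.021). For KIF20B the other probe sets, dim and of a kind (_x_at) that can match several transcripts, were at 0.20 and −0.14, and the median of its probe sets was 0.0054 (adjusted p = 0.975). The positions of the probe sets in the transcripts were not analysed here.

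**Figure D4:**
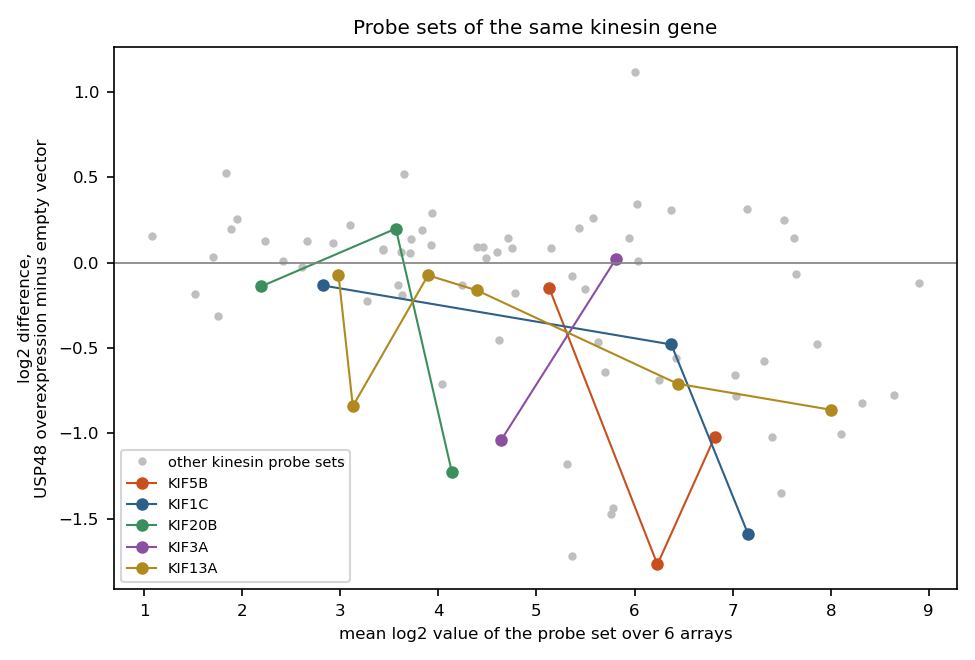
Each point is 1 kinesin probe set, with its mean log2 value over 6 arrays on the horizontal axis and its log2 difference (USP48 overexpression minus empty vector) on the vertical axis; lines join the probe sets of 5 genes. The probe sets of KIF5B spread from −1.77 to −0.15 and those of KIF1C from −1.59 to −0.13.

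The scaling of the arrays sets how many differences near 0 are called. With arrays scaled on the hybridization controls, every log2 difference falls by 0.29, in each class alike, and the median of all genes becomes −0.24, and of the genes called 11.3% were higher, against 52.6% as deposited. Under that scaling 12 of 13 mitotic kinesins fell with a median of −1.30, 8 transport kinesins fell and 1, KIF21B, rose, and 2 other kinesins fell. KIF13B, KIF3B and KIFC2 were the added falls in the transport class, at −0.47, −0.41 and −0.37.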

How the data were processed

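Expression was measured on 6 Affymetrix arrays. The authors deposited 1 log2 value for each probe set in each array. RMA produced them, per the submitters' processing notes, and its version was not given in the sources used here. RMA equalises the arrays' signal distributions, which hides any change in total RNA. Array medians ran from 3.75 to 3.79. No columns were identical, and 0 sample columns were unused.

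Of 54675 probe sets, 41091 had a single gene symbol in GEO's annotation of the array (1801 had several, 11721 had none), and 41037 of these matched RefSeq gene IDs (GRCh38.p14). The probe set with the highest mean represented each of 19775 genes. Tests used limma 3.58.1 under R 4.3.3 (moderated, two-sided, no filter), with Benjamini-Hochberg adjustment across all genes and a threshold of 0.05, after a check on simulated data. Probe sets were tested likewise across all non-control probe sets. Single values had exact permutation tests. The number of arrays, 3 per group, limits the precision.

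The members and lists were chosen with earlier results of these data known. Named genes are USP48, every kinesin, CENPE and up to 4 members per list past the threshold with the largest difference; other list members, promoter neighbours and relatives were chosen after their values were seen. Alternatives were quantile normalization, scaling on 18 hybridization controls, an intensity trend with a robust prior, omission of the dimmest genes (33.3%), the mean or median of probe sets, a replicate block, omission of each array, an adjusted p under 0.01 and a 2-fold limit. Figures were drawn with matplotlib 3.10.9 (Python 3.11.15).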

Additional observations from a re-analysis of the deposited data

How the results depend on the processing

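Of the 20 kinesins past the threshold, 16 kept direction and call in all 13 alternatives run on single genes, 11 of them mitotic and 5 transport; KIF20B, KIF13A, KIF5C and KIF27 did not. With the median of probe sets KIF13A was at −0.12 (adjusted p = 0.317). Among kinesins past the threshold as deposited or under the alternative, the sign turned for KIF20B (0.0054) and KIF5C (−0.12) with the median of probe sets, for KIF3A with the mean or the median (−0.51 each) and for KIF26A with hybridization control scaling (−0.28). That scaling also turned 16 kinesins that passed in neither setting, to values from −0.28 to −0.032, and other alternatives turned 9 such kinesins, to values from −0.18 to −0.0031. Where no cause is named, the cause was not tested.

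With hybridization control scaling, which lowers every difference alike, the class medians were −1.30 (mitotic), −0.27 (transport) and −0.19 (other), 2 other kinesins, 9 adaptors and 20 S phase genes passed, and USP48 was at −0.42. With the mean of probe sets USP48 was at −0.32, the mitotic median −0.90 and the transport median −0.091; with their median the class values were −0.90 and −0.12. Either gave 2 other kinesins, as did quantile normalization, where the transport median was 0.093. Without the dimmest genes it was −0.080, with 0 other kinesins past the threshold. An adjusted p under 0.01 gave 3847 genes, 0 other kinesins and 2 adaptors. The 2-fold limit kept 739 genes, 7 mitotic, 3 transport and 0 other kinesins, 7 partners, 1 adaptor, 10 G2 and M phase genes, 0 dynein genes and 0 S phase genes.

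With each array left out in turn the medians ran from −1.06 to −0.91 (mitotic), −0.057 to 0.080 (transport) and 0.064 to 0.15 (other), the other kinesins past the threshold numbered 0 to 1, and the adaptors 2 to 6. The replicate numbers did not pair the arrays: deviations of same-numbered arrays correlated across genes at 0.0042, 0.17 and 0.015. With the replicate block 5824 genes passed, against 5897 without it, and KIF5C did not (adjusted p = 0.057). With 3 arrays per group, values below the array medians, as for KIF2B, KIF24 and KIF27, bound what can be seen.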
